A study of Homo sapiens with 8 samples.

Results

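The transcription factor AP-1 and other immediate early genes were followed in LX-2 cells as a set of 10 genes. The set held the FOS family (FOS, FOSB, FOSL1 and FOSL2), the JUN family (JUN, JUNB and JUND) and the early response genes EGR1, IER2 and IER3. The genes were taken by their symbols from the count files of all libraries, and all 10 were found among the 16796 genes listed and among the 14895 genes tested. LX-2 is a single human cell line of activated hepatic stellate cells, the liver cells that turn into matrix-producing myofibroblasts (MFs). All cultures were kept in 5% serum, and for 24 h they were given either the vehicle DMSO (control, 4 libraries) or 50 µM of OSMI-1 (OGTi, 4 libraries). OSMI-1 inhibits O-GlcNAc transferase (OGT), the enzyme that adds O-GlcNAc, a single sugar, to proteins of the nucleus and cytoplasm, and messenger RNA was measured by RNA sequencing. The label of control replicate 4 spells the vehicle DSMO, and it was read as DMSO because the title of that library names it a control.

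Immediate early genes are those that a cell can switch on within minutes of a stimulus without making new protein first. Growth factors and stress act through MAP kinases, which activate serum response factor (SRF) and its partners at these genes, and the resulting messages are usually short-lived. AP-1 is a dimer of basic leucine zipper proteins. A JUN protein pairs with another JUN protein or with a FOS protein, and the pair binds the sequence TGACTCA or its close relatives at promoters and enhancers. FOS and FOSB carry a strong transactivation domain that FOSL1 (FRA-1) and FOSL2 (FRA-2) lack, and JUNB is a weaker activator than JUN and can oppose it. In stellate cells AP-1 is associated with activation and with genes for matrix and matrix-degrading enzymes.

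The 10 genes did not move as a block (see the plot of counts by library). Under OGTi 6 genes rose, namely FOS, FOSB, JUNB, JUND, IER2 and IER3, and 3 genes fell, namely FOSL2, JUN and EGR1. FOSL1, the most abundant of the 10, was not called. Calls were made in DESeq2 at a p-value of 0.05 or lower after Benjamini-Hochberg adjustment (q). The members called made up 90.0% of the set, beside 46.6% called among all genes with a q (22.7% higher and 24.0% lower). The changes of FOS, FOSB, JUNB and EGR1 were called and reached 2-fold, which held for 8.55% of all genes with a q. FOSL2 came just short of 2-fold (log2 fold change of -0.97). The log2 fold change of FOS was 0.90 without replicate 3 and that of EGR1 -0.94 without replicate 4, both under 2-fold. For 8 of the 10 genes no OGTi library overlapped with a control library, which held for 38.0% of all genes tested, and 9 of the 10 changed in the same direction in all 4 pairs of libraries with the same replicate number, as did 55.9% of all genes tested. The members were chosen with earlier results of these data known, so these shares describe the set and are not a test of it. Since each library came from a whole culture, fewer cells expressing a gene and less RNA per cell cannot be told apart.

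**Figure D1:**
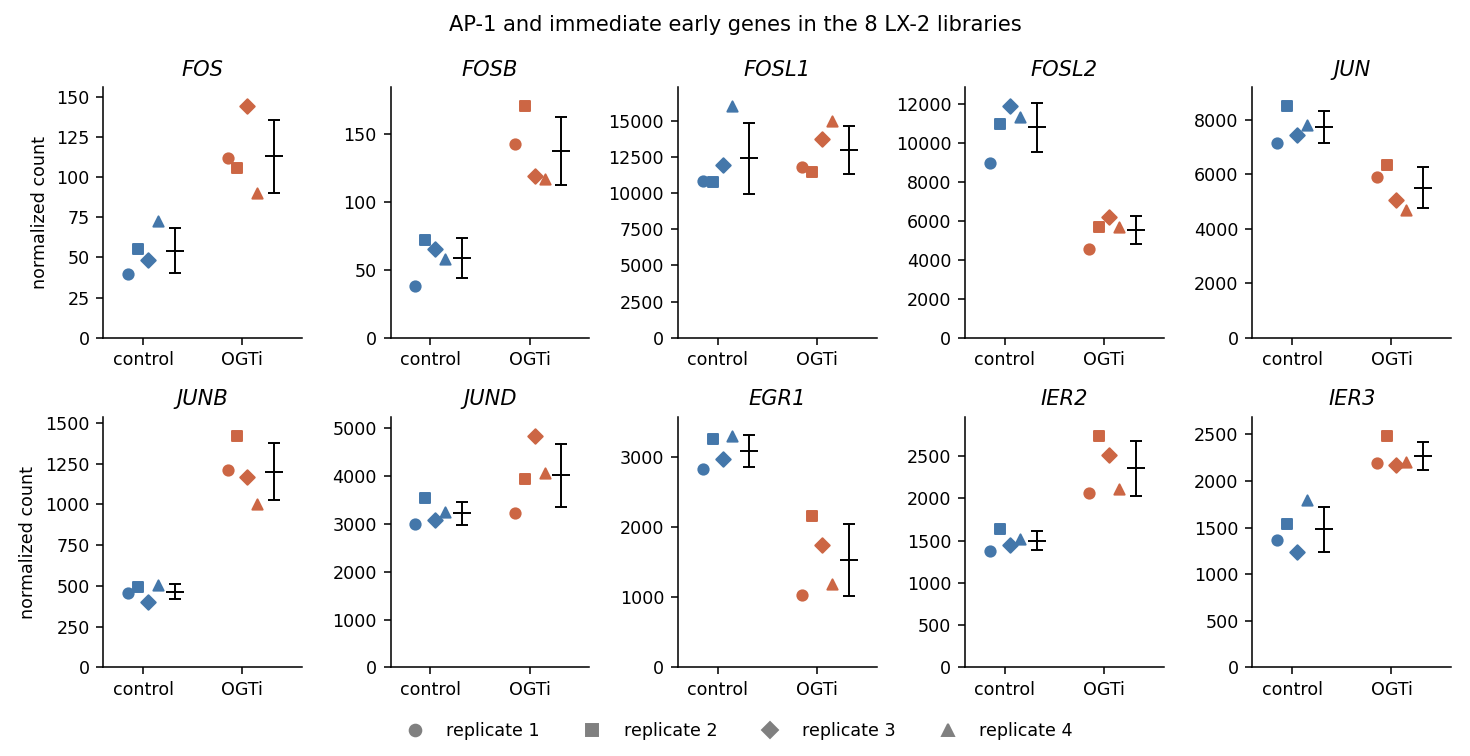
Normalized counts (counts divided by the size factor of the library, linear axes from 0) of the 10 genes in the control (blue) and OGTi (orange) libraries, with a marker shape for each replicate and the mean ± SD of 4 libraries in black. FOS, FOSB, JUNB, IER2 and IER3 lie above the controls and FOSL2, JUN and EGR1 below them in every OGTi library, while FOSL1 and JUND overlap.

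The libraries held 24166756 to 28201215 counts. The defining stellate markers were high as a sum, with normalized counts of 10 markers at 205225 to 243630 in control and 148211 to 173503 in OGTi libraries. Most of the control sum came from VIM (95086 on average) and COL1A1 (84778), while ACTA2 (717) and PDGFRA (131) were far lower. Of the 10 markers, 7 fell and none rose, and DES was near 0 (3.58 and 1.42 on average). Markers of other liver cells were summed per library. Those of hepatocytes (2 of 5 tested) gave 47.1 to 104 in control and 183 to 297 in OGTi libraries. This rise was of CYP2E1 (41.4 and 200 on average), while SERPINA1 was not called (log2 fold change of -0.08). Those of endothelial cells (3 of 4) gave 47.7 to 91.1 and 17.0 to 33.8, and only CDH5 was called (lower). Those of cholangiocytes (2 of 4) gave 681 to 1151 and 954 to 1273. Here SOX9 rose (834 and 1045 on average) and KRT7 fell (111 and 53.8), both with overlapping groups. The macrophage list (4 of 5) summed to 2495 to 4085 and 5619 to 9405, nearly all of it from the lysosomal gene CD68, while PTPRC had 7.64 and 2.84 on average. The part of these markers in the results below was not tested.

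Promoters of FOS, FOSB and JUNB, which rose at least 2-fold, and of JUN and EGR1, which fell, are shown from the RefSeq table (GRCh38.p14) to place the elements through which immediate early genes are known to be switched on. Of the 10 members, 8 had an entry; FOSL1 and IER3 had none. The upstream stretch of FOSL2, which also fell, is not printed because it lies inside the gene as GENCODE draws it, with a start at 28392448 against 28392858 in RefSeq. Each sequence runs 5′ to 3′ from 200 to 11 bases before the annotated start, and capitals mark the motifs found.
FOS, chr14:75278628-75278817, plus strand: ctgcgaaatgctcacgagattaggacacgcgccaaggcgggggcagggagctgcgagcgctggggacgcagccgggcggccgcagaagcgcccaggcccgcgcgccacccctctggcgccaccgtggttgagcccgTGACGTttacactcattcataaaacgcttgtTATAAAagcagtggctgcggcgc
FOSB, chr19:45467796-45467985, plus strand: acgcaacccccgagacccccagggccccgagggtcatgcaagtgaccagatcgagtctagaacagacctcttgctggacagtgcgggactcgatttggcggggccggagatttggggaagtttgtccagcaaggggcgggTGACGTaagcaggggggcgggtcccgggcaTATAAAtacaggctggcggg
JUNB, chr19:12791286-12791475, plus strand: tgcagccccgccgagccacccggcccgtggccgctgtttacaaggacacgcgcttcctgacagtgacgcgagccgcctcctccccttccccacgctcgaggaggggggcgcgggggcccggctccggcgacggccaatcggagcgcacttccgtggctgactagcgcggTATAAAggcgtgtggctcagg
JUN, chr1:58784058-58784247, minus strand: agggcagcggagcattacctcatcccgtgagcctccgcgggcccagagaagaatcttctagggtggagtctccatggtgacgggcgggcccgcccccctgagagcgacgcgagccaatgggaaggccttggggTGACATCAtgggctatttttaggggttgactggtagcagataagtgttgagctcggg
EGR1, chr5:138465279-138465468, plus strand: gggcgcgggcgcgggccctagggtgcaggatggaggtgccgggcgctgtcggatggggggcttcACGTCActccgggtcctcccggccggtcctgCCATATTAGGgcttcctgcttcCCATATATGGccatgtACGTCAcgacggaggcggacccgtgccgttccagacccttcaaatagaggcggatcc

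Motifs were searched on both strands in the window from 250 bases before to 50 bases after each start, and their shares were counted over 34796 windows of the same length. The core TGACGT of the cAMP response element was in the windows of FOS (64 bases before the start), FOSB (60 before) and FOSL2 (66 before), and EGR1 held it at 136 and 67 bases before the start as ACGTCA. JUND held the full element TGACGTCA, which contains the core, 200 bases before its start and a separate core at 87. The core was present in 7.97% and the full element in 1.84% of all windows. A TATA box (TATAAA) stood 33, 30 and 31 bases before the starts of FOS, FOSB and JUNB, and was in 11.6% of all windows. The JUN window held the AP-1-like sequence TGACATCA, found in 2.60% of all windows, 67 bases before the start. FOSL2 held the AP-1 site TGACTCA at position 5 counted from its RefSeq start (chromosome 2, 28392862 to 28392868), as 4.96% of all windows held this site. Within the 8 windows EGR1 held the only exact CArG boxes, the sequence that SRF binds, at 105 and 83 bases before its start. Of all windows, 1.3% had one or more. Sites more than 250 bases before a start, and any of FOSL1 and IER3, were not searched. The sequence GCGGGGGCG, a form of the EGR1 binding site, was in 5.07% of all windows and in none of the 8. Other forms of this site were not searched. The 3 members with the exact sequence TATAAA were the 3 that rose at least 2-fold, which is a description of 8 windows and was not tested. The match depends on the last letter, since JUND, which rose by 0.31 on the log2 scale, had TATAAG upstream of its start.

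In order of level, the 10 genes spanned a wide range. Levels were compared between genes as normalized counts per kb of the canonical GENCODE transcript. In control cells FOSL1 was highest at 7274 ± 1457 per kb (SD, n = 4 for all values with an SD), at the 98.7th percentile of all genes with a length. It was followed by JUN at 2374 ± 179, JUND at 1667 ± 123, FOSL2 at 1610 ± 189, IER3 at 1199 ± 195, EGR1 at 985 ± 72 and IER2 at 710 ± 53. JUNB had 254 ± 26 per kb, at the 58.4th percentile. FOS and FOSB were at the bottom with 25.7 ± 6.6 and 15.5 ± 3.9 per kb. Among neighbours in this order, the libraries of JUND and FOSL2, of FOSL2 and IER3, of IER3 and EGR1, and of FOS and FOSB overlapped. In OGTi cells FOSL1 remained first (7630 ± 977 per kb), followed by JUND (2081 ± 342), IER3 (1828 ± 122), JUN (1692 ± 234), IER2 (1117 ± 155), FOSL2 (825 ± 103), JUNB (657 ± 94) and EGR1 (487 ± 164). The libraries of JUND and IER3, of IER3 and JUN, of FOSL2 and JUNB, of JUNB and EGR1, and of FOS and FOSB overlapped. IER2 stood above FOSL2 without overlap, the reverse of their order in control cells. FOS (53.6 ± 10.8) and FOSB (36.4 ± 6.6) were still lowest.

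**Figure D2:**
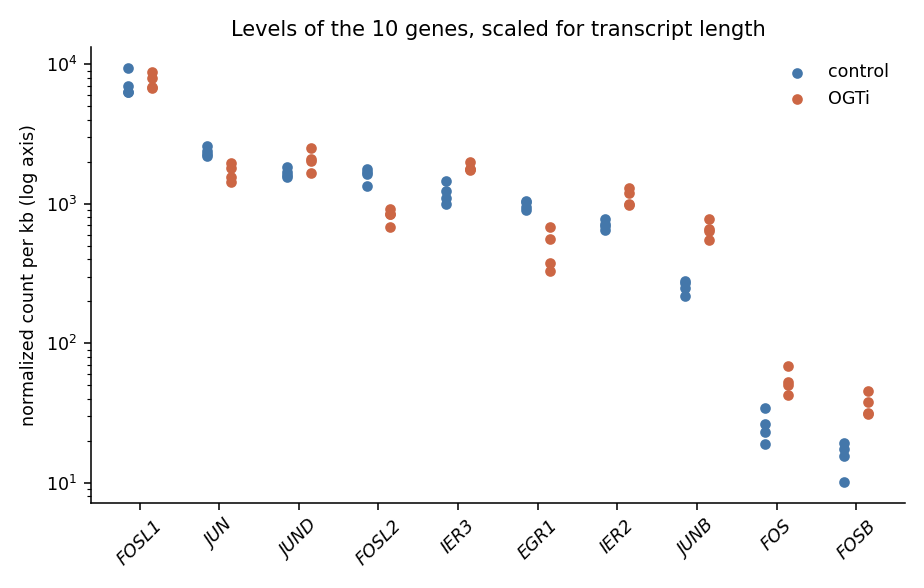
Level of each gene in each library as normalized counts per kb of transcript (log axis), control in blue and OGTi in orange, ordered by the control mean. FOSL1 lies at 6319 per kb or more in every library and FOS and FOSB at 68.5 per kb or less.

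The FOS family split into 3 patterns. FOS (chromosome 14, 75278826 to 75282230, 4 exons) is the classic serum-induced partner of JUN. Its normalized counts were 39.9, 55.4, 48.3 and 72.8 in control replicates 1 to 4 and 111, 105, 144 and 90.2 in OGTi replicates 1 to 4. Every OGTi library stood above every control, with the smallest gap in replicate 4, where the control was the highest of its group. The log2 fold change was 1.07 ± 0.29 (SE; DESeq2 q of 0.000668), and leaving out 1 replicate at a time gave 0.90 to 1.33. FOSB (chromosome 19, 45467995 to 45475179) encodes a paralog of FOS that is likewise induced early. It had 38.0, 72.3, 65.5 and 58.2 normalized counts in control and 143, 171, 119 and 117 in OGTi cells. The groups were well apart, and the lowest control was replicate 1. The log2 fold change was 1.25 ± 0.26 (DESeq2 q of 6.40e-06). Both genes rested on few reads, with raw counts of 39 to 77 for FOSB in control libraries, and both stayed at a low level after their rise.

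FOSL1 (chromosome 11, 65892049 to 65900573) encodes FRA-1, a protein that accumulates under sustained ERK signalling. Its normalized counts were 10838, 10754, 11916 and 16015 in control and 11797, 11455, 13700 and 14993 in OGTi cells. Replicate 4 was the highest library of both groups, and the groups overlapped over most of their range. FOSL1 was higher in 3 of 4 pairs, by 0.08 ± 0.07 on the log2 scale overall (DESeq2 q of 0.369) and a 95% Wald interval from -0.06 to 0.22. The interval does not show that the level was the same, but it ends below the intervals of FOS, FOSB and JUNB.

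FOSL2 (chromosome 2, 28392448 to 28417317) encodes FRA-2, which is linked to fibrosis in several organs. It had 8985, 10996, 11911 and 11327 normalized counts in control and 4562, 5681, 6211 and 5688 in OGTi cells. All 4 OGTi libraries were well below the lowest control. The fall was 0.97 ± 0.06 on the log2 scale (-0.97, DESeq2 q of 5.89e-51), the largest Wald statistic in size among the 10 genes. The fall was also the most even between pairs, which gave -0.98, -0.95, -0.94 and -0.99. Replicate 1 was lowest and replicate 3 highest in both groups.

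Of the JUN family, JUN fell, JUNB rose most and JUND rose slightly. JUN (chromosome 1, 58776845 to 58784048, a gene of 1 exon) encodes the main activating partner of FOS proteins. Its normalized counts were 7158, 8513, 7454 and 7807 in control and 5914, 6359, 5069 and 4698 in OGTi cells. Every OGTi library was below every control, more so in replicates 3 and 4 than in 1 and 2. The log2 fold change was -0.50 ± 0.08 (DESeq2 q of 1.01e-08). JUNB (chromosome 19, 12791486 to 12793315, also 1 exon) had 455, 493, 402 and 508 normalized counts in control and 1210, 1422, 1171 and 1003 in OGTi cells. Even the lowest OGTi library, replicate 4, was far above the highest control. The log2 fold change of 1.37 ± 0.12 (DESeq2 q of 4.04e-30) was the largest rise of the set.

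JUND (chromosome 19, 18279694 to 18281622) is expressed broadly and is less dependent on stimulation than its paralogs. It had 3000, 3538, 3084 and 3241 normalized counts in control and 3230, 3926, 4842 and 4057 in OGTi cells. OGTi replicate 1 lay within the control range and OGTi replicate 3 was the highest library. JUND was higher in all 4 pairs, at 0.31 ± 0.09 on the log2 scale (DESeq2 q of 0.00274). This call rested on replicate 3, without which the log2 fold change was 0.19 (DESeq2 q of 0.0915).

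EGR1, IER2 and IER3 are early response genes outside AP-1, and they did not share a direction. EGR1 (chromosome 5, 138465479 to 138469303) encodes a zinc-finger factor that binds GC-rich promoters. It had 2829, 3254, 2968 and 3302 normalized counts in control and 1028, 2150, 1745 and 1190 in OGTi cells. The controls were close together, while OGTi replicates 1 and 4 were far lower than replicates 2 and 3. The log2 fold change was -1.07 ± 0.23 (DESeq2 q of 1.07e-05), and the 4 pairs ranged from -0.60 to -1.47. The coefficient of variation of EGR1 was 7.36% in control and 33.7% in OGTi libraries, the widest OGTi spread of the 10 genes.

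IER2 (chromosome 19, 13150411 to 13154911) encodes a nuclear regulator of transcription. It had 1379, 1641, 1453 and 1520 normalized counts in control and 2062, 2745, 2513 and 2112 in OGTi cells, with no overlap. The log2 fold change was 0.65 ± 0.09 (DESeq2 q of 5.36e-13). IER3 (chromosome 6, 30743199 to 30744548) encodes a stress-inducible protein that modulates survival and ERK signalling. It had 1362, 1537, 1240 and 1795 normalized counts in control and 2189, 2486, 2167 and 2205 in OGTi cells. Here too all OGTi libraries were above all controls, by 0.62 ± 0.10 on the log2 scale (DESeq2 q of 8.39e-10).

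**Figure D3:**
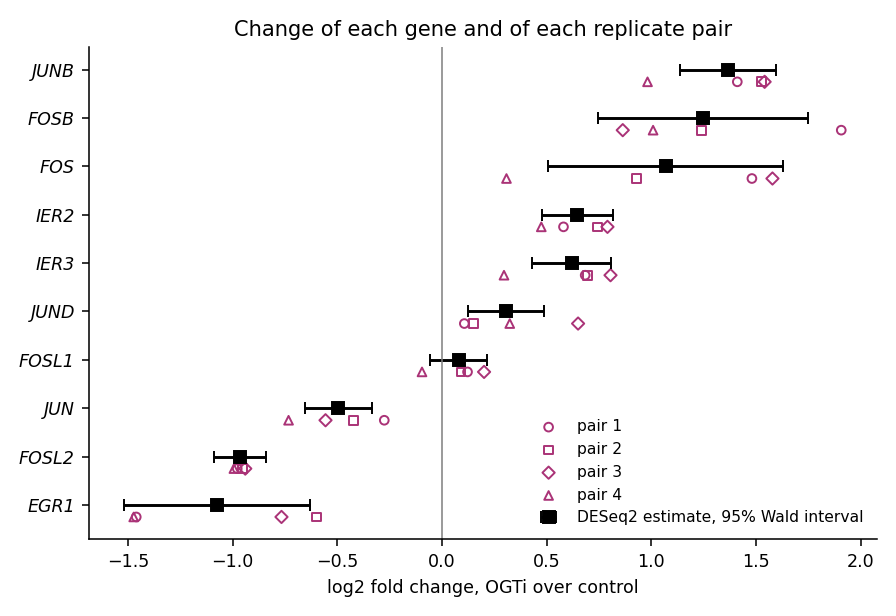
Log2 fold change of OGTi over control for the 10 genes (black squares, DESeq2 estimate with its 95% Wald interval) and the log2 difference of each replicate pair (open symbols). Only the interval of FOSL1 includes 0, the 4 pairs of FOSL2 coincide near -0.97, and pair 4 is the lowest pair for 8 genes.

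The size of the change differed between cultures in a way that ran across genes. Pair 4 had the lowest log2 difference of the 4 pairs for 8 of the 10 genes, the exceptions being FOSB and JUND. Among these 8 its rises were thus smallest and its falls largest. Some of these ranks were near ties, since pairs 4 and 1 gave -1.47 and -1.46 for EGR1 and -0.99 and -0.98 for FOSL2. Over all genes tested pair 4 was lowest for 24.4%. Pair 3 had the highest difference for 7 of the 10 genes, beside 27.2% of all genes. For JUNB the pairs gave 1.41, 1.53, 1.54 and 0.98, and for IER3 they gave 0.68, 0.69, 0.81 and 0.30. The genes share their libraries and are not independent of each other. These values rest on matching replicates 3 and 4 by number, while over all genes control replicate 3 was closer to OGTi replicate 4 (correlation of deviations from the group mean of 0.272) than to OGTi replicate 3 (0.138), and OGTi replicate 3 was closer to control replicate 4 (0.201). In control cells replicate 1 held the lowest value of 7 of the 10 genes, and in OGTi cells replicate 2 held the highest value of 6. These ranks within a group were not counted over all genes, so they cannot be set apart from a trait of the libraries.

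The composition of the FOS and JUN families was given as the share of each gene in the summed counts per kb of its family. The summed level itself was 8925 ± 1551 per kb in control and 8544 ± 1026 in OGTi cells for the FOS family, and at 4295 ± 318 and 4429 ± 356 for the JUN family. Within the FOS family FOSL1 went from 81.3% ± 2.6 to 89.2% ± 1.3 while FOSL2 went from 18.3% ± 2.5 to 9.69% ± 1.1. The share of FOS went from 0.286% ± 0.040 to 0.634% ± 0.136 and that of FOSB from 0.176% ± 0.052 to 0.437% ± 0.126. Within the JUN family JUN went from 55.3% ± 0.4 to 38.3% ± 4.9, JUNB from 5.91% ± 0.47 to 14.8% ± 1.5, and JUND from a range of 38.6% to 38.9% to 46.9% ± 6.4. Per kb, JUN was thus the leading JUN transcript in all 4 controls and JUND was in OGTi replicates 2, 3 and 4. In OGTi replicate 2 the lead was small (2035 against 1952 per kb). Before scaling for length, JUN had more normalized counts than JUND in every library. In none of the 7 shares did the groups overlap, and an exact permutation test (two-sided) gave 0.0286 for each, a value that cannot be lower with 4 libraries per group (q of 0.0286 over the 7 shares). The shares of a family are tied to each other through its sum, so these are not 7 independent results. The size of these differences depends on the scaling for length. Without it the share of FOSL1 differed by 16.2 percentage points in place of 7.96, that of FOSL2 by -17.1 in place of -8.57 and that of FOSB by 0.50 in place of 0.26, in the same directions. With pairs kept together the smallest possible p is 0.125, which each share gave.

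**Figure D4:**
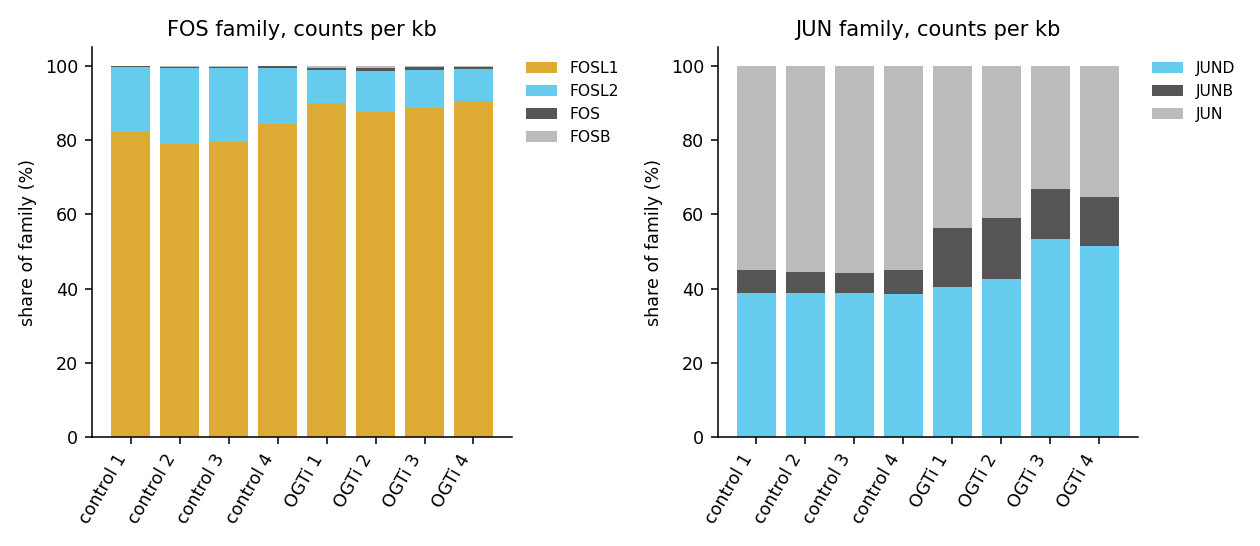
Share of each gene in the counts per kb of the FOS family (left) and the JUN family (right) in each library, stacked to 100%. FOSL1 takes 79.0% to 84.4% of the FOS family in control and 87.7% to 90.5% in OGTi libraries, and JUN takes 54.9% to 55.7% of the JUN family in control and 33.1% to 43.7% in OGTi libraries.

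The JUN shares were almost the same in the 4 controls and differed between OGTi libraries. The share of JUN was 43.7% and 41.0% in OGTi replicates 1 and 2 and 33.1% and 35.2% in replicates 3 and 4. The summed normalized counts of 8 heat shock genes divided the same libraries, at 250057 and 243434 in OGTi replicates 1 and 2 and 155470 and 169618 in replicates 3 and 4, against 124017 to 132798 in control libraries. The largest part of this sum was HSPA8, which was not called (DESeq2 q of 0.279). HSPA8 had 87878 and 95371 normalized counts in OGTi replicates 1 and 2 and 53343 and 61120 in replicates 3 and 4. Its control libraries held 55851 to 59987. The part of the heat shock genes in the JUN shares was not tested.

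Genes around AP-1 were counted by lists drawn from general knowledge of the pathway. The lists were chosen with earlier results of these data known, so their counts and shares are a description. Among the 9 AP-1 partners tested, 2 rose, 4 fell and 3 were not called, with a median log2 fold change of -0.00458, beside 0.00451 over all genes tested. The share of genes called was 66.7% for these partners, 67.6% for the other immediate early genes, 33.3% for the serum response factors, 38.9% for the MAP kinase genes, 50.0% for the decay and turnover genes, 57.1% for the AP-1 targets and 87.5% for the heat shock genes, to be read against the 46.6% of all genes. With only 6 serum response factors, 18 MAP kinase genes and 10 decay and turnover genes tested, their shares are not read as different from that background. MAFF, a small MAF protein, rose (1.43 ± 0.11, DESeq2 q of 1.15e-39), while JDP2, a repressive partner of JUN (-0.70 ± 0.13, q of 4.67e-07), and ATF7, which pairs with JUN proteins (-0.42 ± 0.09, q of 5.62e-06), fell, both with overlapping groups. The 37 other immediate early genes tested moved in both directions, with 14 higher, 11 lower and 12 not called and a median of -0.00316. Of these, the kinase gene PLK2 fell (-1.31 ± 0.07, q of 1.22e-76) and the kinase gene PLK3 rose (1.68 ± 0.13, q of 1.41e-36). DUSP5, which encodes a phosphatase of ERK, rose as well (1.47 ± 0.12, q of 1.80e-35).

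Upstream of these genes, 2 of the 6 serum response factor genes fell and none rose (median of -0.06). SRF itself fell from 6079 ± 417 to 3999 ± 257 normalized counts (-0.60 ± 0.08, DESeq2 q of 1.81e-13), and MRTFB, which encodes a coactivator of SRF, fell as well with overlapping groups (-0.54 ± 0.12, q of 5.28e-05). Of the 18 MAP kinase genes, 2 rose and 5 fell (median of -0.04). The lead members were RPS6KA4 (-0.69 ± 0.07, q of 1.39e-21) and MAP3K1 (-0.96 ± 0.11, q of 2.94e-16), both lower, and RPS6KA2 (0.72 ± 0.08, q of 2.17e-20), which was higher. The EGR1 corepressor genes moved apart, since NAB2 rose (0.53 ± 0.10, q of 7.15e-07) and NAB1 fell (-0.38 ± 0.11, q of 0.00226), the latter not called without replicate 2 (q of 0.0768).

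Of the 10 genes for decay of these messages or turnover of these proteins, 1 rose and 4 fell (median of -0.12). ZFP36, which encodes a protein that degrades AU-rich messages, rose (0.87 ± 0.12, DESeq2 q of 1.35e-12). HNRNPD (-1.02 ± 0.08, q of 3.58e-38), which encodes another AU-rich binding protein, and ELAVL1 (-0.38 ± 0.08, q of 5.81e-06), which encodes a stabilising one, fell. Among 21 known AP-1 targets tested, 6 rose, 6 fell and 9 were not called (median of -0.12), so the list had no common direction. VEGFA rose (1.19 ± 0.11, q of 3.99e-24), while LIF (-1.5 ± 0.25, q of 3.31e-08) and HBEGF (-0.42 ± 0.07, q of 7.10e-08) fell. Of the 8 heat shock genes, 7 rose and none fell (median of 0.66), among them HSPH1 (0.88 ± 0.08, q of 8.05e-25), DNAJB1 (0.51 ± 0.09, q of 2.31e-08) and HSPA1B (1.26 ± 0.21, q of 2.17e-08), which shares reads with its near-identical copy HSPA1A. Their part in the changes of the early genes was not tested.

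**Figure D5:**
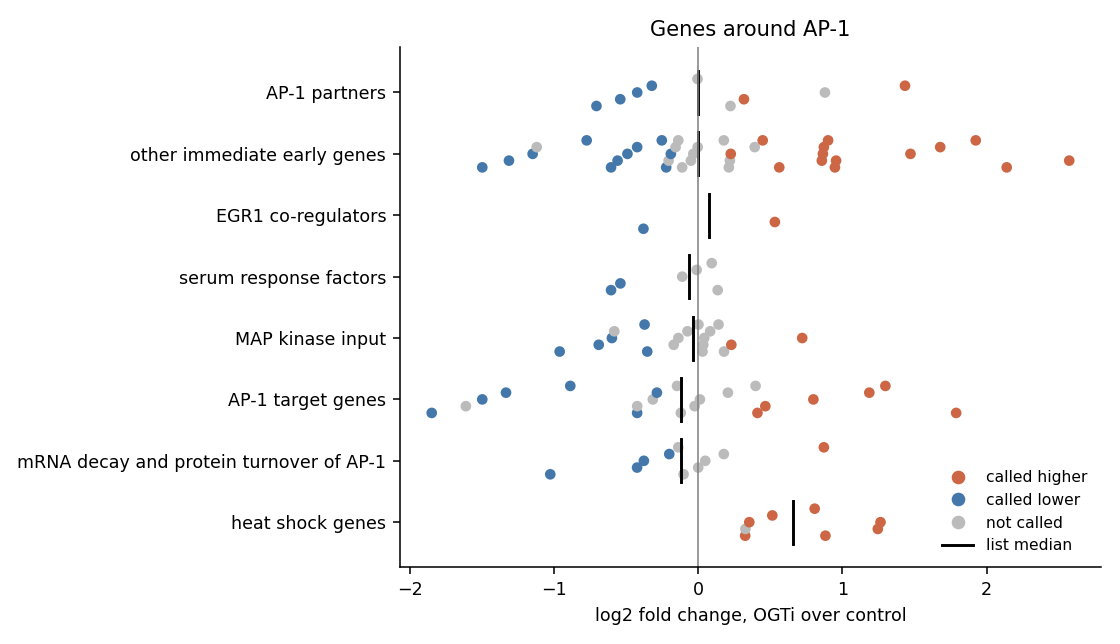
Log2 fold change of OGTi over control for each tested gene of the 8 pathway lists, coloured by call, with the list median as a black bar. The medians lie between -0.12 and 0.08 except for the heat shock genes at 0.66.

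Over the 8 libraries, the genes most like the leading member of each group were sought by the root mean square difference between log2 profiles centred on their own mean. Among 10993 genes compared, FOSL2 was closest to CKAP4 (0.069), ELF4 (0.072) and ZBED1 (0.073). JUNB was closest to POR (0.072), SERTAD1 (0.096) and XRRA1 (0.098), and IER2 to MSX2 (0.060), ATF4 (0.065) and SLC1A5 (0.072).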

How the data were processed

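RNA was enriched for polyadenylated messages and sequenced as stranded, paired-end libraries from 4 independent experiments per group. Per the labels and the study's methods, the authors aligned reads to hg38 with Bowtie2 2.3.5.1 and estimated counts per gene with RSEM 1.3.1 using strand. The authors deposited these expected counts per gene, 1 file per library, not scaled for depth or length. A comparison table of the authors (DESeq2 1.36.0: mean, log2 fold change, standard error, statistic and p-values) was not used. Here expected counts were rounded, genes with a total under 10 left out, and 14895 genes fitted with DESeq2 1.42.0 in R 4.3.3 (Wald test, median-of-ratios size factors, no shrinkage, replicate as a block, q of 0.05). The pairing follows the study's methods. Deviations from the group mean correlated across 11702 genes at 0.379, 0.303, 0.138 and 0.269 for pairs 1 to 4, although control replicate 3 was closer to OGTi replicate 4 (0.272) and OGTi replicate 3 to control replicate 4 (0.201). No library was a copy of another (chi-square per degree of freedom of 8.62 or more within groups). Positions and transcript lengths came from GENCODE 44 on GRCh38 by symbol, with a length for 14104 genes. Fits were tested on simulated data. Alternatives were edgeR 4.0.16, no block, TMM factors, other filters, shares not scaled for length and leaving out each replicate.

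Named genes were the 10 members, up to 3 called genes with the largest Wald statistic per list, and the 3 nearest profiles for 3 members (mean of at least 100 normalized counts, pseudocount of 1). The members and lists were chosen with earlier results of these data known. The counts limit precision to the spread between 4 cultures of 1 cell line.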

Additional observations from a re-analysis of the deposited data

Results flagged for a closer look

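In each group of 4 libraries, the gap between the highest or lowest value and its neighbour was set against the range of the group, for the counts of the 10 genes and the 7 family shares. Of 34 groups compared, 1 passed the 95% critical value of the Dixon test, which chance passes in about 1 of 20 groups. It was IER3 under OGTi, where replicate 2 had 2486 normalized counts while the remaining libraries lay between 2167 and 2205, a gap share of 0.882. Without replicate 2 the rise of IER3 was still called.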

How the results depend on the processing

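The replicate numbers paired the libraries, and removing the replicate block changed no call among the 10 genes. All 9 called genes were called under edgeR with and without the block, TMM factors and both other filters. Among all genes the calls numbered 6541, 6307 without the replicate block, 6045 to 7135 over these settings, and 5127 to 5690 with 1 replicate left out. No result changed direction. JUND was 0.19 without replicate 3 and 0.19 to 0.38 over the 4 omissions. The called EGR1 co-regulators numbered 1 to 2 and the called decay and turnover genes 3 to 5 over the omissions, with 3 without replicate 2 or 4. For the family shares no test that keeps pairs together or leaves out a replicate can pass 0.05, so those p-values do not bear on stability. With the replicate block the differences in percentage points were 0.35 for FOS, 0.26 for FOSB, 7.96 for FOSL1, -8.57 for FOSL2, -17.0 for JUN, 8.89 for JUNB and 8.13 for JUND (exact sign-flip p of 0.125). Over the omissions they were 0.30 to 0.42 for FOS, 0.23 to 0.30 for FOSB, 7.52 to 8.58 for FOSL1, -9.28 to -8.12 for FOSL2, -19.0 to -15.1 for JUN, 8.32 to 9.52 for JUNB and 6.04 to 10.3 for JUND (exact permutation p of 0.1). Without scaling for length they were 0.38, 0.50, 16.2, -17.1, -16.4, 7.10 and 9.32 in the same order, so that the sizes for FOSB, FOSL1 and FOSL2 depend on the scaling. The lead of JUND over JUN in OGTi replicates 2, 3 and 4 was present only with the scaling. Depth limits FOS and FOSB most, with 39 to 77 raw counts in control libraries. All cultures were of 1 cell line, at 1 dose and 1 time, so early peaks of these genes were not measured.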

Other observations

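The NR4A genes encode nuclear receptors that are induced early, and they were chosen here after their values were seen. NR4A3 rose from 96.7 ± 33.0 to 359 ± 54 normalized counts (log2 fold change of 1.92 ± 0.20, DESeq2 q of 1.36e-19) and NR4A2 from 12.8 ± 7.5 to 53.0 ± 9.9 (2.14 ± 0.44, q of 7.60e-06), both in 4 of 4 pairs. NR4A1 had 528 ± 80 and 515 ± 124 and was not called (-0.05 ± 0.12, q of 0.765, 95% Wald interval from -0.28 to 0.18). ARC, a gene known for its early induction in neurons and likewise chosen after its values were seen, had 6.24 to 31.2 normalized counts in control and 43.1 to 157 in OGTi libraries, higher in 4 of 4 pairs (2.57 ± 0.35, DESeq2 q of 3.00e-12).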
